A study of Camelus dromedarius with 4 samples.

Results

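Expression of 10 genes of activated and lipid-handling microglia (GPNMB, CD68, SIRPA, SIRPB1, CD14, TLR2, SPP1, LGALS3, APOE and LPL) was examined in the supraoptic nucleus of the dromedary camel, out of 16053 gene symbols with a mean expression in each season. The genes were chosen by name, with their season means already known, so their difference between seasons is given as a description and was not tested. Total RNA was sequenced from 2 winter and 2 summer libraries (winter replicates 2 and 3, summer replicates 1 and 2). The animals were healthy adult male camels of the Tergui breed, age-matched between seasons by dentition and slaughtered for food. The study describes them as fully hydrated before slaughter, and no treatment is described. Winter animals came from El Oued and summer animals from Ouargla, in Algeria, so that season and place of slaughter cannot be told apart.

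Microglia are the resident phagocytes of the brain. At rest they express receptors that sense nucleotides and chemokines, such as P2RY12 and CX3CR1. When they take up debris or myelin they raise lysosomal, pattern-recognition and lipid-transport genes, and the genes examined here are widely used as markers of that state. Perivascular macrophages and infiltrating monocytes express most of them as well. The supraoptic nucleus holds the magnocellular neurons that make vasopressin and oxytocin.

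Expression is given as normalised reads, which are reads divided by a size factor that corrects for library depth. The deposited season mean is the authors' mean over the libraries of that season. Every such mean could be written as a sum of whole reads from the 2 libraries, and for 9889 symbols only 1 pair of read numbers was possible in both seasons. The libraries recovered in this way are called A (larger size factor, 1.325 in winter and 0.9222 in summer) and B (0.9456 in winter and 0.8773 in summer). Winter library A points to winter replicate 2, whose count file had the larger size factor, whereas the summer libraries could not be assigned to a replicate. Over the symbols with 1 possible pair, summer library A had fewer reads (378639) than B (440928) despite its larger size factor. An alternative scaling (TMM) gave factors of 0.846 for A and 0.970 for B, so close orders that involve the summer libraries depend on the scaling. Between 4379162 and 6902037 reads per library lay on gene models. By the study's description, 2 camels per season were compared by RNA sequencing, so the spread between libraries of a season is taken as that between animals, with technical spread included. For genes with season means of 30 to 100, the median gene differed 1.33-fold between the winter libraries and 1.46-fold between the summer libraries. The fold exceeded by 1% of these genes was 3.86 in winter and 23.8 in summer, so the summer libraries stood further apart from each other.

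Of the 10 genes, 8 had a season mean of at least 10, and all 8 reached it in both seasons. Among these, 6 were higher in summer and 2 in winter. More than 2-fold differences were found for 3 genes, GPNMB, SIRPB1 and LGALS3, each higher in summer. Over all 13811 genes with a mean of at least 10, 7430 were higher in summer and 6380 in winter. Of the 13811, 4.53% were more than 2-fold higher in summer and 2.72% more than 2-fold higher in winter. The same all-gene counts are the background for the gene lists described below. The median log2 ratio of winter over summer was -0.22 for the 8 genes and -0.04 for all genes. Since the 10 genes were chosen on this contrast, nothing is read from the comparison of their counts, shares and median with those of all genes.

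**Figure D1:**
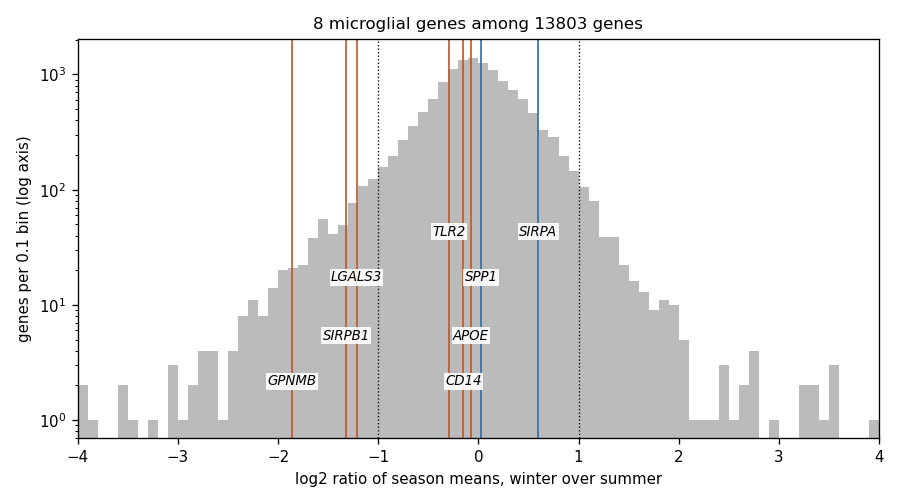
Histogram of the log2 ratio of season means (winter over summer; x axis) for genes whose mean reached 10 in either season, with the number of genes per bin on a log y axis and vertical lines at the 8 microglial genes (orange, higher in summer; blue, higher in winter). Dotted lines mark a 2-fold difference, and 8 genes with a ratio beyond 4 on the log2 scale or a mean of 0 are not drawn; GPNMB, SIRPB1 and LGALS3 lie to the left of the dotted line on the summer side.

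The first group is made up of lysosomal and surface proteins. GPNMB is a transmembrane glycoprotein of lysosomes and the cell surface that rises in phagocytes loaded with lipid. It had 19.6 and 6.35 normalised reads in winter libraries A and B (26 and 6 reads) and 28.2 and 66.1 in summer libraries A and B (26 and 58 reads). Both summer libraries lay above both winter libraries, but summer library A was closer to winter library A than to its own partner. The season means were 12.98 ± 9.39 in winter and 47.2 ± 26.8 in summer (SD, n = 2), a 3.63-fold higher level in summer (log2 ratio -1.86). Of all genes, 0.724% had a lower ratio of winter over summer. As GPNMB was chosen with its season means known, nothing is read from this rank. The size of this difference rested on single libraries: without winter library A the log2 ratio was -2.89, without winter library B -1.27, and without summer library B -1.12.

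CD68, a lysosomal membrane protein used as a general marker of phagocytes, had almost no reads under this symbol. It had 3 and 2 reads in winter libraries A and B and 0 in both summer libraries. A count of 0 allows up to 3 reads, or 3.25 and 3.42 normalised reads in summer libraries A and B, which is above both winter levels, so no difference was detectable at this depth. Intervals and floors of this kind cover counting error only. The study describes its assembly as a draft in which fragmentation or duplication raises the number of predicted genes. How completely the gene models cover CD68 was not tested, so its few reads may not reflect its expression. The same holds for LPL and SPI1, which are described below.

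**Figure D2:**
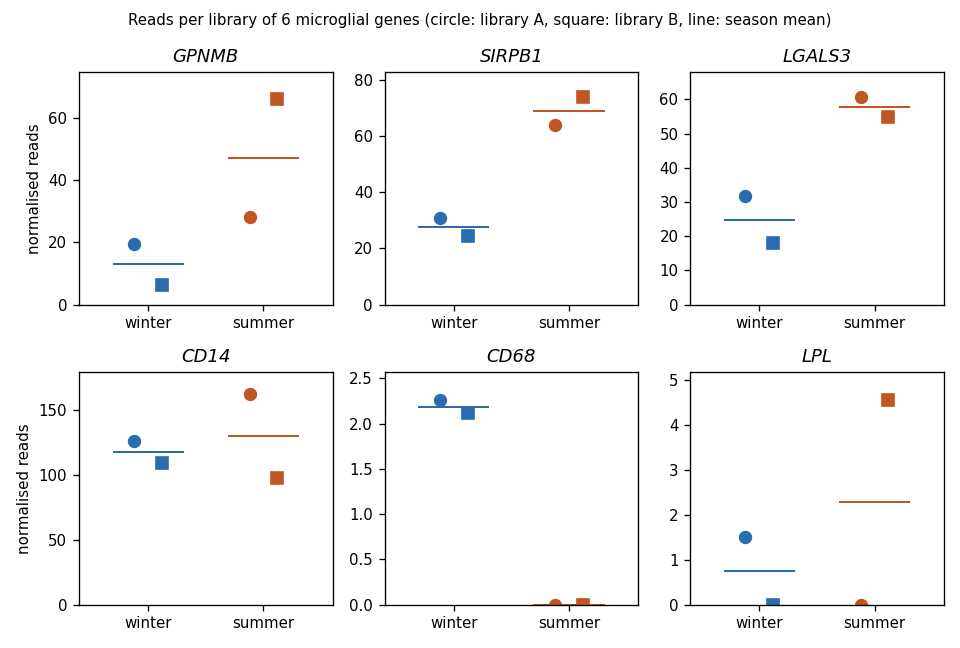
Normalised reads (y axis, from 0) of 6 genes whose reads could be assigned to libraries in both seasons, by season (x axis). Circles are library A, squares library B and lines the season mean; the summer libraries lie above the winter libraries for GPNMB, SIRPB1 and LGALS3, the seasons overlap for CD14, and CD68 and LPL have at most 4 reads in any library.

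The signal-regulatory proteins are paired receptors found on myeloid cells, among others. SIRPB1 is the activating member and signals through the adaptor TYROBP. It had 30.9 and 24.3 normalised reads in winter libraries A and B and 64.0 and 74.1 in summer libraries A and B. The summer libraries were close to each other and lay above both winter libraries. The mean was 27.6 ± 4.68 in winter and 69.0 ± 7.15 in summer (SD, n = 2), 2.50-fold higher in summer (log2 ratio -1.32). Leaving out any 1 library kept the log2 ratio between -1.50 and -1.16, the narrowest range among the genes with reads in each library.

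SIRPA is the inhibitory member, which binds CD47 on other cells and restrains phagocytosis. The authors' mean was 811 in winter and 536 in summer, 1.51-fold higher in winter (log2 ratio 0.60), and 90.2% of all genes had a lower ratio. Nothing is read from this rank either, since SIRPA was chosen with its season means known. Its reads could not be assigned to libraries: 5 pairs of read numbers were possible in winter and 2 in summer. Of the 10 combinations, winter exceeded summer in both libraries in 2, and the seasons overlapped in 8. One summer solution (7 and 934 reads) and 1 winter solution (143 and 1431 reads) put the libraries further apart than 99% of assigned genes with means of 30 to 100. Without them, which was decided after the values were seen, 2 of 4 combinations had winter above summer. SIRPA and SIRPB1 thus had ratios of opposite sign. The sequences of SIRP genes are alike and how the counting divided reads between them is not known, so both values are uncertain. Which cell types the SIRPA reads came from was not tested.

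CD47, the ligand of SIRPA, had 47.5 and 61.3 normalised reads in winter libraries A and B and 68.3 and 47.9 in summer libraries A and B. The seasons overlapped, and the quasi-likelihood test of edgeR gave a log2 difference of -0.10 ± 0.427 (SE; adjusted p = 0.987). No row for TYROBP was used here, so the adaptor of SIRPB1 could not be described.

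CD14 and TLR2 recognise microbial and damage-associated ligands. CD14, a co-receptor of the toll-like receptors, had 126.0 and 109 normalised reads in winter libraries A and B and 163 and 98.0 in summer libraries A and B. The seasons overlapped, with summer holding both the highest and the lowest library. The log2 ratio was -0.15, and without summer library A it turned to 0.26. TLR2, which pairs with TLR1 or TLR6 to sense lipoproteins, had an authors' mean of 163 in winter and 199 in summer (log2 ratio -0.29). Summer libraries A and B had 233 and 165 normalised reads. In winter either 186 and 140 or 46.8 and 279 were possible in libraries A and B, and the seasons overlapped with either. CD14 and TLR2 therefore showed no separation of the seasons, and both were higher in summer library A than in summer library B.

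The other toll-like receptors and the partners of CD14 come from a list of 31 partners of the 10 genes, of which 28 had a mean of at least 10 and 16 of these were higher in summer. The individual genes described here were picked from it after their values were seen, except LY96 and RELA. TLR4, the receptor for lipopolysaccharide, had 105 and 139 normalised reads in winter libraries A and B and 246 and 139 in summer libraries A and B. TLR10 had 83.0 and 76.1 in winter libraries A and B, against 118 and 114 in summer libraries A and B. Both genes, with TLR6, had their summer libraries above their winter libraries, although TLR4 did so by a margin of less than 1 normalised read. TLR1 overlapped, with 50.6 and 61.3 in winter libraries A and B and 115 and 45.6 in summer libraries A and B. LY96, which holds lipopolysaccharide on TLR4, had the lowest ratio of the list (log2 ratio -1.16) but overlapped between seasons, with 5.28 and 15.9 in winter libraries A and B and 13.01 and 34.2 in summer libraries A and B.

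TLR1, TLR4 and TLR6 were higher in summer library A and LY96 was higher in summer library B. Among the 17 partners with reads assigned in both seasons, 6 had both summer libraries above both winter libraries and 1 had the reverse order. The 6 were TLR4, TLR6, TLR10, LBP, MYD88 and ITGB3, and the 1 was TFE3. The same orders held for 17.2% and 13.3% of the 7647 genes tested, respectively. No partner passed a test: TLR10, for example, differed by -0.54 ± 0.332 on the log2 scale (SE; quasi-likelihood test of edgeR, adjusted p = 0.982). RELA, a subunit of NF-kB, had the highest ratio of the list (log2 ratio 0.77).

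**Figure D3:**
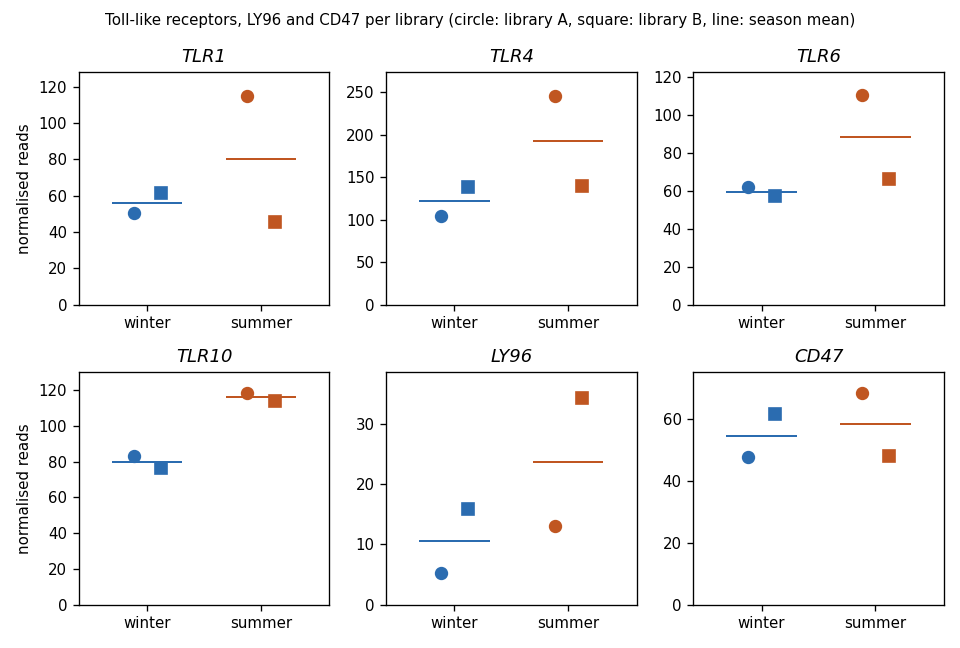
Normalised reads (y axis, from 0) of TLR1, TLR4, TLR6, TLR10, LY96 and CD47 by season (x axis). Circles are library A, squares library B and lines the season mean; TLR1, TLR4 and TLR6 are highest in summer library A, LY96 is highest in summer library B, and CD47 overlaps between seasons.

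SPP1 and LGALS3 are secreted. LGALS3 encodes galectin-3, a lectin released by phagocytes that also marks damaged lysosomes. It had 31.7 and 18.0 normalised reads in winter libraries A and B and 60.7 and 54.7 in summer libraries A and B. Both summer libraries lay above both winter libraries. The gap between the seasons was wider than that within either pair of libraries in normalised reads, but not as a fold, since the winter libraries differed 1.76-fold. The mean was 24.8 ± 9.70 in winter and 57.7 ± 4.25 in summer (SD, n = 2), 2.32-fold higher in summer (log2 ratio -1.22, with a range of -1.68 to -0.86 when any 1 library was left out). SPP1 encodes osteopontin, a secreted ligand of integrins and CD44. The authors' mean was 1142 in winter and 1120 in summer (log2 ratio 0.03), and in each of the 2242 possible combinations of read numbers the seasons overlapped.

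The 2 secreted proteins, which are often listed together, had ratios of -1.22 and 0.03 on the log2 scale. CD44, a receptor for osteopontin and hyaluronan, had 70.9 and 58.2 normalised reads in winter libraries A and B and 144 and 237 in summer libraries A and B. It was 2.95-fold higher in summer by its season means, with no overlap. In the quasi-likelihood test of edgeR its log2 difference was -1.55 ± 0.385 (SE), which did not pass after adjustment over all genes tested (adjusted p = 0.982).

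APOE and LPL handle lipids. APOE encodes the main carrier of cholesterol and phospholipid in the brain, made by astrocytes and by activated microglia. The authors' mean was 4973 in winter and 5230 in summer (log2 ratio -0.07), close to the median of all genes. Because the counts were high, 53671 combinations of read numbers were possible, and 77 of them placed summer above winter. LPL, which releases fatty acids from lipoproteins, had 2 and 0 reads in winter libraries A and B and 0 and 4 in summer libraries A and B. It was at or near the level that a count of 0 allows in each library, and no ratio is given. Of the 38 other genes of lipid handling, 34 had a mean of at least 10, with 14 higher in summer and 20 in winter, a median log2 ratio of 0.10, and 1 more than 2-fold apart. That gene was the cholesterol exporter ABCG1, at 154 in winter and 76.2 in summer (log2 ratio 1.01). The scavenger receptor CD36 had the lowest ratio (log2 ratio -0.89), but its libraries overlapped, with 51.3 and 110 normalised reads in winter libraries A and B and 62.9 and 236 in summer libraries A and B. The 13 lipid genes with assigned reads had a median log2 ratio of -0.11, so the sign of the list's median depended on which of its genes were included, and none passed the test.

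Within the 10 genes, the pair of summer libraries did not rank alike. GPNMB was 2.34-fold higher in summer library B than in summer library A, and SIRPB1 was slightly higher there with the size factors used. CD14, TLR2 and LGALS3 were higher in summer library A. The genes whose pattern over the 4 libraries was nearest to GPNMB, by the distance of centred log2 normalised reads among 7646 genes, were FCRL1 (0.310), COPZ2 (0.354) and SBSN (0.427). For SIRPB1 they were LYG2 (0.115), CDH1 (0.140) and GCNT4 (0.148), and for LGALS3 TTC23 (0.146), OR3A2 (0.148) and CYBRD1 (0.155). CD14 had the closest neighbours, IKZF1 (0.0340), CCT6 (0.0388) and FAM118A (0.0449). With 4 libraries such distances are a description. No gene on these lists is a member of the 10, but only GPNMB, SIRPB1, CD14 and LGALS3 were among the genes searched. Nothing is therefore read from the absence of the others. For CD68 the nearest were C1ORF210, ACR and PIM3, and for LPL SYNDIG1L, SLC51B and MAL2, but both genes had too few reads for a pattern to be read from them.

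Markers of homeostatic microglia were measured to see whether the tissue held these cells. CX3CR1 had an authors' mean of 951 in winter and 1169 in summer, P2RY12 of 571 and 682, and TREM2, a lipid-sensing receptor of microglia, of 438 and 523. AIF1, which encodes the microglial protein IBA1, had 89.0 and 136 normalised reads in winter libraries A and B and 147 and 86.6 in summer libraries A and B. Microglial markers were thus clearly expressed in both seasons and their seasons were not more than 2-fold apart, while the myeloid transcription factor SPI1 was near 0, with 2 and 3 reads in winter libraries A and B and 2 and 0 in summer libraries A and B. Of 20 homeostatic markers, 16 had a mean of at least 10, with 9 higher in summer, 7 in winter and a median log2 ratio of -0.06. GPR34 had the lowest ratio (log2 ratio -0.93) and CSF1R, the receptor for the growth factor that microglia need, the highest (0.92). Neither of these passed the quasi-likelihood test of edgeR (adjusted p = 0.982 for both), although their libraries did not overlap between seasons. The median of the 6 markers with assigned reads was -0.06 and turned to 0.02 with total reads as scaling. These 6 summed to 557 and 590 normalised reads in winter libraries A and B and to 686 and 495 in summer libraries A and B, so the seasons overlapped.

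The quantity of microglia and the RNA per cell cannot be told apart in bulk tissue. As a description added after the values were seen, the genes were divided by AIF1 in the same library. SIRPB1 then had 0.348 and 0.178 of AIF1 in winter libraries A and B and 0.434 and 0.855 in summer libraries A and B, and LGALS3 had 0.356 and 0.132 in winter and 0.412 and 0.632 in summer. Both genes kept summer above winter relative to AIF1. GPNMB had 0.220 and 0.0465 in winter libraries A and B and 0.191 and 0.763 in summer libraries A and B, which overlap. The log2 ratio of GPNMB was about as large after division, at -1.84 relative to AIF1 and -2.03 relative to PTPRC, against -1.86 before. Dividing by PTPRC, a marker of all white blood cells, gave the same order for each of the 4 genes with assigned reads. AIF1 and PTPRC had log2 ratios of -0.05 and -0.07 themselves, while the homeostatic list ran from GPR34 (-0.93) to CSF1R (0.92). Other markers were not used as divisors, so these orders hold for AIF1 and PTPRC only.

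Other cell types that express these genes were measured by their markers. Of 10 perivascular macrophage markers, 7 had a mean of at least 10 and 5 were higher in summer, with a median log2 ratio of -0.90. The 6 with assigned reads summed to 264 and 215 normalised reads in winter libraries A and B and to 191 and 515 in summer libraries A and B. This sum was highest in summer library B and lowest in summer library A, but it left out CD163, whose winter reads could not be assigned. CD163 had 455 and 141 normalised reads in summer libraries A and B, whereas MRC1, which is in the sum, had 14.1 and 229. These markers, named after their values were seen, did not rank the summer libraries alike, so the order of the sum depended on the markers included. F13A1 (log2 ratio -1.65) had the lowest ratio and CD209 (1.10) the highest of the list, and the median of the 6 with assigned reads was -0.55 and turned to 0.90 without summer library B. Of 12 monocyte and neutrophil markers, 6 had a mean of at least 10 and 5 of these were higher in summer, with a median log2 ratio of -0.73. MPO, a defining enzyme of neutrophils, had 0 reads in both winter libraries and 0 and 4 in summer libraries A and B, so no difference was detectable at this depth. The sum of the 6 was 207 and 302 in winter libraries A and B and 331 and 357 in summer libraries A and B. Much of the summer sums came from ITGAL (201 and 76.4 in summer libraries A and B) and VNN1 (0 and 128), which both overlapped between seasons. Of the 6 markers, 2 had both summer libraries above both winter libraries and 0 had the reverse order, against 17.2% and 13.3% of all genes tested. CSF3R, a receptor for a growth factor of neutrophils, had the highest ratio of the list (log2 ratio 0.75). The part of these other myeloid cells in the values of GPNMB, SIRPB1 and LGALS3 was not tested. Astrocytes also make APOE. Of 10 astrocyte markers, 4 were higher in summer, with a median log2 ratio of 0.15 and GJB6 as the gene with the highest ratio (0.39). GFAP, a filament protein of astrocytes, had an authors' mean of 14423 in winter and 25074 in summer (log2 ratio -0.80), and S100B, a calcium-binding protein, of 7490 and 11788 (log2 ratio -0.65). The means of the list summed to 24726 in winter and 39439 in summer. AQP4 had the lowest ratio (log2 ratio -1.01) but only 3 to 9 reads in any library, and it reached a mean of 10 in summer alone. The part of astrocytes in the values of APOE was not tested.

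In the other direction, all 8 neuron markers with a mean of at least 10 were higher in winter, with a median log2 ratio of 0.80, from ELAVL3 (0.54) to NEFM (1.45). Of the 10 oligodendrocyte markers 9 were higher in winter (median 0.23), and MAG had the highest ratio (0.69). The medians of the neuron and oligodendrocyte lists thus lay on the winter side and those of the perivascular macrophage and monocyte lists on the summer side, and the part of such differences in the ratios of the 10 genes was not tested. The endothelial list had a median of -0.12, from ESAM (-0.57) to CDH5 (0.91), and the mural and fibroblast list -0.17, from COL1A2 (-1.01) to PDGFRB (0.48).

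**Figure D4:**
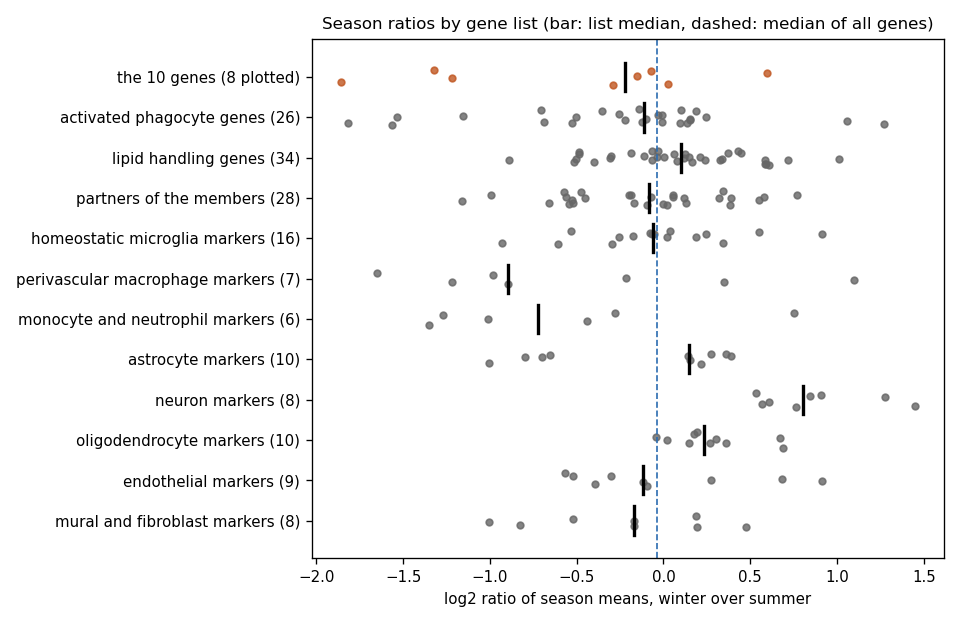
Log2 ratio of season means (winter over summer; x axis) of each gene with a mean of at least 10, by gene list (y axis, number of genes in brackets). Black bars are list medians and the dashed line is the median of all genes; perivascular macrophage and monocyte lists have medians to the summer side and the neuron list to the winter side.

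Genes of activated phagocytes beyond the 10 were listed in the same way. Of 33 such genes, 26 had a mean of at least 10, and 17 were higher in summer and 9 in winter, with a median log2 ratio of -0.11. More than 2-fold differences were found for 4 genes higher in summer and 2 higher in winter, where 4.53% and 2.72% of all genes differed by as much. ITGAX, which reached a mean of 10 in summer alone, is an integrin of dendritic cells and activated microglia. It had 4.53 and 5.29 normalised reads in winter libraries A and B and 14.1 and 20.5 in summer libraries A and B (log2 ratio -1.82). CST7, an inhibitor of lysosomal proteases, went the other way, with 30.9 and 18.0 in winter libraries A and B and 4.34 and 16.0 in summer libraries A and B (log2 ratio 1.27). Neither passed the quasi-likelihood test of edgeR (adjusted p = 0.982 for both). The 10 genes of the list with assigned reads had a median log2 ratio of -0.25, which turned to 0.34 without summer library B.

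Across the 7647 genes with assigned reads and a mean of at least 10, the quasi-likelihood test of edgeR called 0% (0 genes) at an adjusted p under 0.05. At an unadjusted p under 0.05 there were 152. With no difference between seasons, a share of about 0.05 of the genes would fall under that threshold, and 152 is a smaller share. The exact test of edgeR and DESeq2 called 1 gene each after adjustment. With the rule of the study, an unadjusted p under 0.05 and a more than 2-fold difference, 0.824% were higher in summer and 0.85% higher in winter. Among the 75 genes of the lists that were tested, none passed after adjustment, and CD44 and COL1A2, both higher in summer, passed the rule. For 1 gene alone, an exact two-sided permutation test of 2 against 2 libraries cannot give a p below 0.333.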

How the data were processed

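The authors prepared stranded, ribosomal RNA-depleted libraries, mapped reads with TopHat on a dromedary assembly of their own, and deposited raw read counts from HTSeq for 64989 anonymous gene models. Their table of named genes holds, per the file headers, a signal (the authors' mean count per season after DESeq size factors), a ratio (the authors' edgeR fold between the seasons) and the authors' p-value. The last 2 columns are the authors' own comparison and were not used. Tool versions are not given in the sources used here. Of 18152 rows, 2099 had no means.

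Each season mean was solved for whole reads of 2 libraries, as 100% of means allowed, against 0.326% (winter) and 0.302% (summer) of values moved at random by up to 5%. Single solutions are commoner for low means, so the 7647 tested genes favour low expression. This step was needed because gene models in the count files bear no names. These reads, divided by the recovered size factors, were compared between seasons with edgeR 4.0.16 in R 4.3.3 (quasi-likelihood fit with the current, not the legacy, dispersion method; Benjamini-Hochberg adjustment). Count files gave only depth (20.7% to 27.8% of alignments lay on gene models) and size factors. Exact tests, DESeq2 1.42.0, other scalings and filters, pseudocounts of 1 and 10 and leaving out each library were alternatives. Scripts were tested on simulated data. The simulation for the fit used reads that varied less between libraries than the measured ones. How often the fit finds a difference at the measured spread was not tested.

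The 10 genes and the 11 lists were chosen with earlier results of these data known. All 10 genes were named, with the gene of the highest and of the lowest ratio in each list, list genes past the rule of the study, CD47, TYROBP, TREM2, AIF1, CX3CR1, P2RY12, and the 3 nearest genes in pattern (distance of log2 normalised reads plus 1). The values of 2 genes that this rule names are not reported here. Precision is limited by the 2 libraries in each season.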

Additional observations from a re-analysis of the deposited data

How the results depend on the processing

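No paired analysis was possible because the seasons share only 1 replicate number, 2, and the recovered reads carry none in summer. GPNMB, SIRPB1 and LGALS3 kept their direction under every alternative tried. Leaving out a library or adding a pseudocount could not have changed it, because both summer libraries lay above both winter libraries. With a pseudocount of 10 the log2 ratio of SIRPB1 was -1.07. When any 1 library was left out, the log2 ratios were -2.89 to -1.12 for GPNMB, -1.50 to -1.16 for SIRPB1 and -1.68 to -0.86 for LGALS3. CD14 ranged from -0.47 to 0.26. The median of the genes with assigned reads ranged from -1.59 to -1.01, and the median was -1.27 for these 4 genes against -0.22 for 8, by construction. Leaving out any 1 library moved the median of genes with assigned reads from -0.43 to 0.34 for activated phagocytes, -0.21 to 0.18 for lipid handling, -0.025 to 0.33 for homeostatic microglia (0.0229 with total reads as scaling), -0.79 to 0.90 for perivascular macrophages and -0.64 to 1.03 for astrocytes, so that each of these medians took either sign. Genes past the adjusted threshold numbered 1 with edgeR's exact test, 1 with DESeq2 and 0 to 227 when any 1 library was left out (207 without summer library A and 227 without summer library B). Genes past the rule of the study numbered 128, against 60 with DESeq2, 79 with a mean of at least 10 in both seasons and 35 to 1160 when any 1 library was left out (1098 without summer library A and 1160 without summer library B, 35 without winter library A and 50 without winter library B). With 1 library in a season, that library is assumed to vary like the others. With total reads as scaling, 121 of 167 were higher in winter, against 65 of 128. Genes with season means more than 2-fold apart numbered 1002, against 3079 at 1.5-fold, 255 at 3-fold, 2071 without a filter and 508 with a mean of at least 10 in both seasons. The cause of the differences between alternatives was not tested.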
